A study of Mus musculus with 2 samples.

Results

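Interferon gamma (IFN-γ) and its signalling were followed in mouse heart allografts through 9 genes listed by name: the ligand *Ifng*, the receptor chains *Ifngr1* and *Ifngr2*, the kinases *Jak1* and *Jak2*, the transcription factor *Irf1*, the inhibitor *Socs1*, and *Stat4* and *Il12rb2*, which carry the IL-12 signal. All 9 were found among the 22337 symbols of the matrix, and all 9 had values in whole molecules. They were read in 4441 cells of 6 hearts, within the 14 cell types of the authors' annotation. The donors were Bm12 mice, C57BL/6 (B6) mice whose class II molecule I-A carries a mutation, and the recipients were B6 mice. Hearts 1, 2 and 3 came from Bm12 donors with intact *Il33* (IL-33+), and hearts 4, 5 and 6 from Bm12 donors that lacked it in every cell (IL-33-, labelled IL33 KO). The recipients kept *Il33* in both groups, so only graft cells lacked it. All grafts were taken at postoperative day (POD) 14, and the ages of the mice were not given.

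Leukocytes were enriched on a density gradient, a hashtag antibody marked the heart of origin of each cell, and the 6 hearts were pooled into 1 run of the 10x Genomics 3' kit. Transcripts were counted by their unique molecular identifiers (UMIs). A level is the mean CPM (the UMIs of a gene scaled to the same total in every cell) in the cells of 1 type and 1 heart, and hearts were the replicates. The hearts held 230 to 1666 cells and 908137 to 7012943 UMIs, and the median cell of a heart held 3291.5 to 4458 UMIs. The *Il33* transcript did not check the labels. In fibroblasts, its usual source in the heart, it ranged from 0 to 50.7 CPM in IL-33+ grafts and from 16.1 to 73.8 CPM in IL-33- grafts. NK cell markers summed to 4867 to 8640 CPM in NK cells, Treg markers to 2323 to 3900 CPM in Tregs and naive T cell markers to 1107 to 1628 CPM in naive T cells (Tn), in the 6 hearts. Cells annotated NKT cells carried NK cell markers (2898 to 6317 CPM) and less of the T cell markers (166 to 315 CPM) than Trm-like cells, the resident memory-like T cells of the annotation (1021 to 1356 CPM). Cells annotated monocyte-derived dendritic cells (Mo-DCs, 204 cells) carried neutrophil markers, summed at 1407 to 69129 CPM in the 6 hearts, beside 1609 to 9112 CPM for macrophage markers and 0 to 74.3 CPM for conventional dendritic cell markers, so the name is kept only as that of the annotation. Cells annotated unconventional T cells (83 cells) carried macrophage markers, whose summed level was 2023 to 3835 CPM in the 6 hearts beside 176 to 950 CPM for T cell markers. Of these cells, 61.4% were among the 6% of all cells with the highest doublet scores, and values for both types are given with that reservation.

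IFN-γ is made mainly by NK cells and by activated T cells. IL-12 induces it through the receptor chain IL-12Rβ2 and STAT4, together with IL-18 and the factors T-bet and Eomes. It binds a receptor of 2 chains: IFN-γR1, which binds the ligand and carries JAK1, and IFN-γR2, which carries JAK2 and is needed for the signal. The signal of the kinases acts on gamma-activated sites (GAS) in genes such as *Irf1*. IRF1 and other factors act in turn on interferon-stimulated response elements (ISRE), and SOCS1 blocks the kinases. In an allograft, IFN-γ is known for raising MHC class II on antigen-presenting cells and the chemokines CXCL9 and CXCL10, which attract T cells.

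The promoters of 2 of the listed genes and of 1 classical target are printed, since they show both elements through which the signal acts. They are RefSeq sequences of the build GRCm38.p6, from 250 bases before to 50 bases after a start site of the gene, 5′ to 3′ on the strand of the gene. Capitals mark matches on either strand to the GAS letters TTCNNNGAA or to the ISRE letters GAAA, then NN, then GAAA.
Irf1: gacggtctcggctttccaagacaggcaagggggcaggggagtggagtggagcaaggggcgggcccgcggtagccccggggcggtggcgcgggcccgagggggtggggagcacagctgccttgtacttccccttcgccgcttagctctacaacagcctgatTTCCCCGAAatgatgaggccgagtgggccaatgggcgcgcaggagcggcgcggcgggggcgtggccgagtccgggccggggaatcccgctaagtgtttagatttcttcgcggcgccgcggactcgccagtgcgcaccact
Socs1: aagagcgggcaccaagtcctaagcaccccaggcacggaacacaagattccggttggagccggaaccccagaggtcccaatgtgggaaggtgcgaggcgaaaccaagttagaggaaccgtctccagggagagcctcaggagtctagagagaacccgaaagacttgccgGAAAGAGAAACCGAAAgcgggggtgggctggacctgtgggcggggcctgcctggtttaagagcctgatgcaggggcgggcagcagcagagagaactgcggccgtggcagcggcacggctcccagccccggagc
Gbp2: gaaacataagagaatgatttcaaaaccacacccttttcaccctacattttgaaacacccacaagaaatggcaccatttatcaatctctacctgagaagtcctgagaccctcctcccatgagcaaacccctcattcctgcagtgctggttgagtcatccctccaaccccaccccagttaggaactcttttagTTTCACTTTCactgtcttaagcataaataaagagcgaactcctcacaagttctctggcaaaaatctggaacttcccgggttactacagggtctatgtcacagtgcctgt
The *Irf1* window (chr11:53769764-53770063, plus strand) holds a GAS match, and the *Socs1* window (chr16:10785487-10785786, minus strand) holds ISRE matches that overlap each other. *Gbp2* codes for a guanylate-binding GTPase that acts against intracellular microbes, and its window (chr3:142620413-142620712, plus strand) holds an ISRE match read on the opposite strand. All 9 listed genes had an entry. A GAS match was present for 3 of them (*Ifng*, *Irf1* and *Il12rb2*) and an ISRE match for 2 (*Stat4* and *Socs1*). That of *Stat4* lies at a start site that RefSeq places inside the gene (chr1:52007990-52008289, plus strand), and not at the first start of the gene. Of all 32851 promoters of this length, 8.30% held a GAS match and 3.44% an ISRE match. Of 17 classical IFN-γ target genes with an entry, 7 held a GAS match and 9 an ISRE match. A match is a string of letters and not evidence of binding, and no match says only that these letters are absent from this window.

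*Ifng* (chr10:118441046-118445892, GRCm38, plus strand) had its highest mean level in NK cells, at 165 CPM ± 41.4 (SD, n = 6). In hearts 1 to 6, NK cells held 119, 168, 172, 163, 238 and 131 CPM. The lowest heart was an IL-33+ graft and the highest an IL-33- graft. Tregs followed at 107 ± 86.6 CPM, effector and effector memory T cells (Tem/eff) at 102 ± 60.9 CPM, NKT cells at 95.03 ± 44.7 CPM, and Trm-like cells at 77.1 ± 37.6 CPM. Central memory T cells (Tcm) held 60.3 CPM and unconventional T cells 44.9 CPM. The other types were lower, from 21.6 CPM in Mo-DCs to 0.847 CPM in monocytes. Between neighbours in this order, none of 13 differences was larger than its SD over hearts. NK cells were above NKT cells in 6 of 6 hearts, but by 70.0 ± 71.2 CPM, and above Trm-like cells in 6 of 6 hearts by 87.9 ± 68.3 CPM. The types were annotated by the authors on these same expression values, so levels across types are described and not tested.

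The Treg value rested on 1 heart. Tregs held 18.3, 108 and 269 CPM of *Ifng* in hearts 1, 2 and 3, and 78.7, 112 and 55.6 CPM in hearts 4, 5 and 6. Heart 3 alone gave 100 of the 140 *Ifng* UMIs of all Tregs, with 28 of them in 1 cell. The Tregs of heart 3 also carried more of 5 NK cell markers, summed at 598 CPM beside 98.8 to 159 CPM in the Tregs of the other hearts. All 5 markers, *Gzma* among them, were detected in Tregs over the 6 hearts together, and which of them raised heart 3 was not examined. Their part in the *Ifng* level was not tested.

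The level in a type also depended on how many cells held the transcript. An *Ifng* UMI was found in 252 of 931 NK cells (27.1%, Wilson 95% interval 24.3 to 30.01%), in 114 of 347 NKT cells (32.9%, 28.1 to 37.96%) and in 88 of 327 Tem/eff (26.9%, 22.4 to 32.0%). NKT cells held more UMIs, with a median of 5742 UMIs a cell beside 2712 in NK cells. Of NKT cells, 14.1% were among the 6% of all cells with the highest doublet scores, beside 3.11% of NK cells. With each cell thinned to 1500 UMIs the expected share was 17.8% in NK cells, 13.5% in Tregs, 12.8% in NKT cells, 11.02% in Tem/eff and 10.4% in Trm-like cells, so NK cells came first at equal depth. These shares pool the cells of all hearts, and those of Tregs lean on heart 3. Averaged over the hearts of each group, the thinned shares in IL-33+ and IL-33- grafts were 17.8 and 18.8% in NK cells, 12.5 and 10.1% in NKT cells and 11.1 and 10.1% in Tregs. B cells, which should lack the transcript, held it in 6 of 286 cells (2.10%, 0.965 to 4.50%; median depth 2292 UMIs; 1.26% when thinned). The shares in monocytes (3 of 154 cells), conventional dendritic cells (cDCs; 3 of 171 cells) and macrophages (15 of 429 cells, 3.497%, or 0.853% when thinned) were at this background. These intervals cover counting error only.

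Over all cells, 1252 *Ifng* UMIs were recovered, from 64 in heart 2 to 574 in heart 3. NK cells held 31.0% ± 6.21 of the *Ifng* UMIs of a heart (SD, n = 6), Tem/eff 19.5% ± 9.14, NKT cells 17.3% ± 9.87 and Tregs 9.88% ± 6.89. NK and NKT cells together held 29.4, 51.6 and 53.3% in hearts 1, 2 and 3 and 50.3, 39.1 and 66.0% in hearts 4, 5 and 6. The groups overlapped, and their means of 44.8% and 51.8% did not differ beyond the spread of hearts (difference −7.05 points, two-sided exact permutation p = 0.6). With 3 hearts against 3 the smallest p is 0.1.

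**Figure D1:**
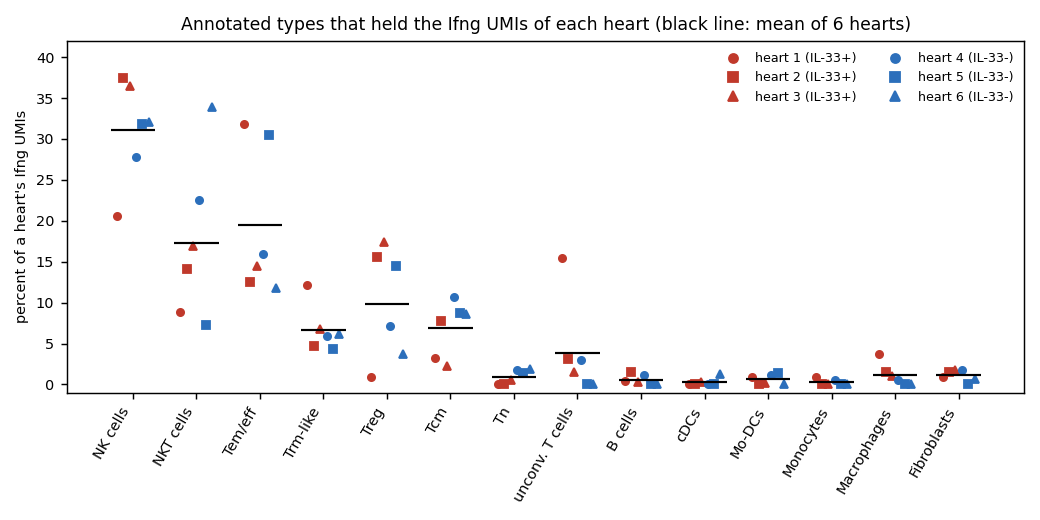
Share of the *Ifng* UMIs of each heart (vertical axis, percent) held by each annotated type (horizontal axis). Each point is 1 heart, red for IL-33+ and blue for IL-33-, and the black line is the mean of 6 hearts. NK cells lead with a mean of 31.0%, and the points of both graft groups overlap in NK cells, NKT cells, Tem/eff and Tregs.

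The 2 receptor chains were high in different cells. *Ifngr1* (chr10:19591949-19610229, plus strand) was highest in NK cells at 1734 ± 180 CPM. NKT cells (1231 ± 109 CPM), Trm-like cells (1180 ± 184 CPM), Tcm (1159 ± 81.7 CPM), Tn (1012 ± 383 CPM) and Tregs (928 ± 151 CPM) followed. Tem/eff held 499 ± 62.0 CPM, and the B cells and myeloid types ranged from 209 CPM in B cells to 341 CPM in monocytes. Steps in this order exceeded their SD from NK to NKT cells (503 ± 225 CPM, 6 of 6 hearts) and from Tregs to Tem/eff (429 ± 108 CPM, 6 of 6 hearts), and the other 11 of 13 did not.

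*Ifngr2* (chr16:91547072-91565623, plus strand) ran the other way. Monocytes held 270 ± 66.5 CPM, macrophages 216 ± 42.7 CPM, and cDCs, B cells and Mo-DCs between 158.5 and 166 CPM. Among lymphocytes, Tn held 114 ± 47.5 CPM, while Tregs (24.0 CPM), Trm-like cells (22.5 CPM) and Tcm (15.0 CPM) were lower. The lowest levels were in NK cells, Tem/eff and NKT cells, all among the 4 types highest in *Ifng*: 28 UMIs were found in all 931 NK cells, 14 in 327 Tem/eff and 9 in 347 NKT cells. The step from Tn to fibroblasts was 77.7 ± 45.9 CPM and was seen in 6 of 6 hearts, and that from macrophages to cDCs was 49.3 ± 39.9 CPM in 5 of 6 hearts.

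At the level of single cells, both chains were detected in 105 of 154 monocytes (68.2%), 191 of 429 macrophages (44.5%) and 72 of 171 cDCs (42.1%), but in 25 of 931 NK cells (2.69%) and 7 of 347 NKT cells (2.02%). Monocytes, macrophages and cDCs held more UMIs a cell (medians of 6709.5, 6606 and 6544) than NK cells (2712), so the shares were also computed at 1500 UMIs a cell. They were then 12.8% in monocytes, 12.7% in Tn, 1.27% in NK cells and 0.447% in NKT cells. Counted with or without the other chain, *Ifngr2* was then expected in 32.7% of monocytes, 25.2% of macrophages and 1.52% of NK cells. *Ifngr1*, counted the same way, was expected in 88.9% of NK cells, 81.0% of NKT cells and 22.95% of B cells. At this depth NK and NKT cells held the first chain in most cells and the second in few, and Tn held both at a share close to that of monocytes. Across the 14 types, the log2 levels of the chains had a Pearson correlation of −0.73, *Ifng* and *Ifngr1* one of 0.81, and *Ifng* and *Ifngr2* one of −0.86. These are descriptions over 14 types that share hearts and a capture, with depths per cell that differ between types.

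**Figure D2:**
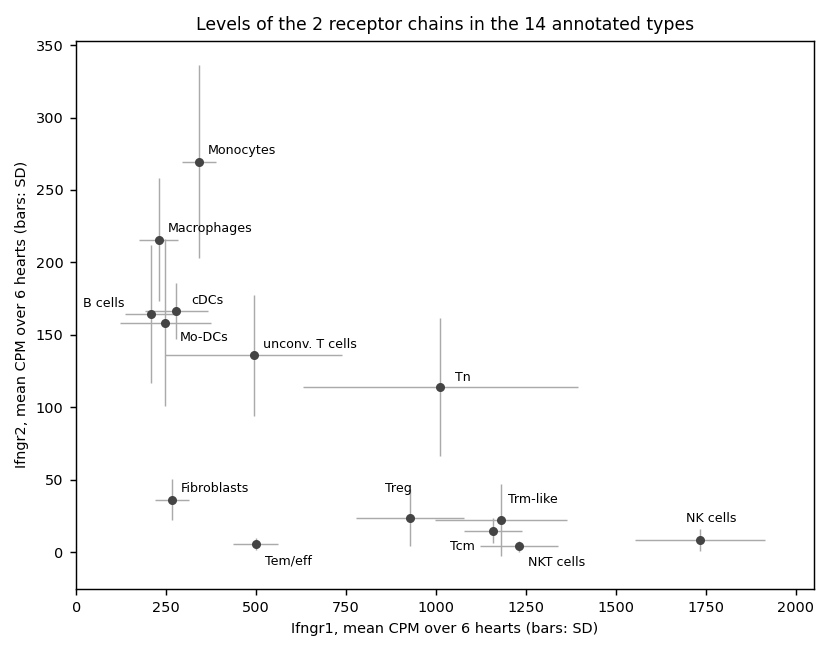
Mean level of *Ifngr1* (horizontal axis, CPM) against *Ifngr2* (vertical axis, CPM) in each of the 14 annotated types. Points are means of 6 hearts and bars are SDs; NK cells lie at 1734 CPM of *Ifngr1* and 8.6 CPM of *Ifngr2*, and monocytes at 341 and 270 CPM.

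The kinases divided the types in another way. *Jak1* (chr4:101152367-101265282, minus strand) declined in small steps over the ordered types, from 903 ± 126 CPM in NK cells through 830 CPM in Tn, 817 CPM in Tcm and 762 CPM in NKT cells to 233 CPM in cDCs. No neighbours in this order differed beyond their SD, but its ends did, with NK cells above cDCs by 670 ± 90.9 CPM in 6 of 6 hearts. *Jak2* (chr19:29251828-29313080, plus strand), the partner of IFN-γR2 and also of the IL-12 receptor, was highest in Tregs at 687 ± 112 CPM. In hearts 1 to 6, all Treg values lay above those of NK cells, NKT cells, Tcm and Tn, whose means were 171, 156, 149.5 and 144 CPM. Tem/eff held 631 ± 68.4 CPM, cDCs 546 ± 121 CPM and Mo-DCs 421 CPM. Tregs and Tem/eff were thus high in *Jak2* and low in *Ifngr2*.

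*Stat4* and *Il12rb2* mark cells that can respond to IL-12. *Stat4* (chr1:51987148-52107189, plus strand) was highest in Tem/eff at 348 ± 57.9 CPM, above NKT cells by 71.5 ± 64.7 CPM in 5 of 6 hearts. NKT cells (277 CPM), NK cells (272 CPM), Trm-like cells (260.5 CPM) and Tcm (258 CPM) lay close together, and macrophages (18.0 CPM) and monocytes (9.7 CPM) were lowest. *Il12rb2* (chr6:67291318-67376188, minus strand) was narrower, with 161 ± 28.5 CPM in NK cells, 60.8 ± 27.5 CPM in NKT cells, 42.1 ± 34.7 CPM in Trm-like cells, 36.4 ± 9.1 CPM in Tcm and 9.2 CPM in Tem/eff. The step from NK to NKT cells was 100 ± 49.8 CPM in 6 of 6 hearts. A UMI was found in 287 of 931 NK cells (30.8%, or 20.2% when thinned) and in 102 of 347 NKT cells (9.03% when thinned), beside 2 of 286 B cells. Tem/eff thus combined the highest *Stat4* level with little of this receptor chain.

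*Irf1* and *Socs1*, both induced by the signal they serve or end, were spread over all types with no clear order. *Irf1* (chr11:53770014-53778374, plus strand) ranged from 296 ± 147 CPM in Mo-DCs, the type with neutrophil markers, to 128 ± 29.9 CPM in NKT cells, and the highest type became Tn when UMIs were summed over the cells of a heart. *Socs1* (chr16:10782240-10785536, minus strand) ranged from 221 ± 204 CPM in fibroblasts to 39.3 ± 12.3 CPM in NK cells. The fibroblast value leaned on heart 5, with 623 CPM from 4 cells. Neither gene had neighbours that differed beyond their SD.

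**Figure D3:**
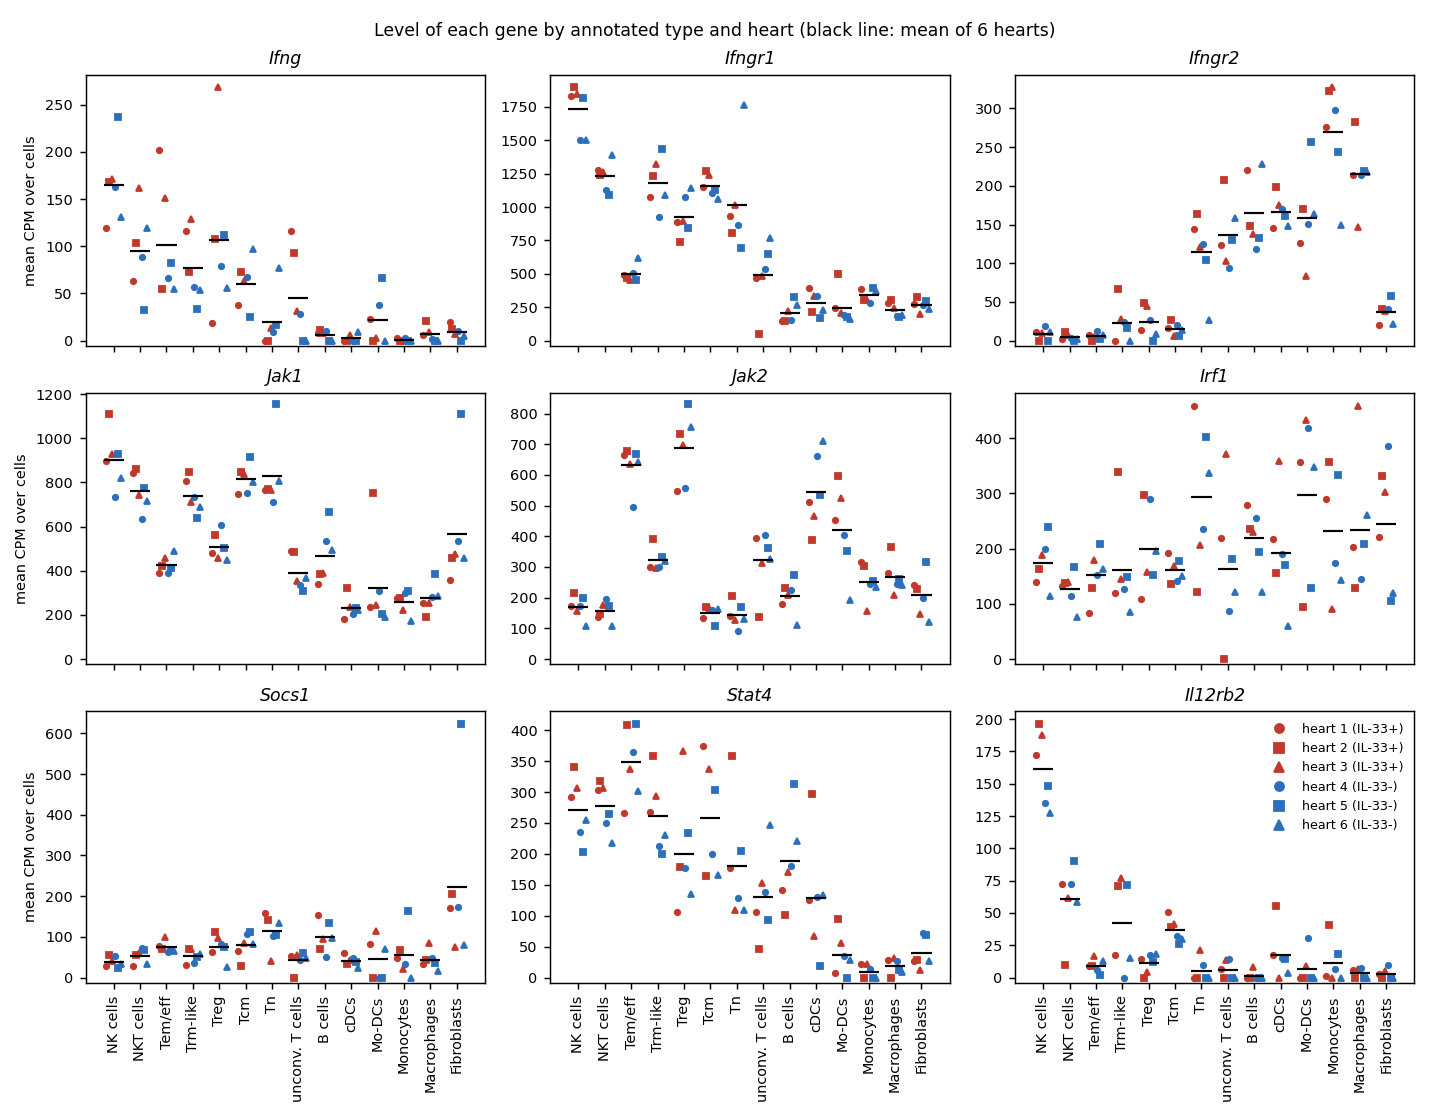
Level of each of the 9 genes (vertical axes, mean CPM, each panel on its own scale) in the 14 annotated types. Each point is 1 heart, red for IL-33+ and blue for IL-33-, and black lines are means of 6 hearts. *Ifngr1* and *Il12rb2* stand highest in NK cells, *Ifngr2* in monocytes and *Jak2* in Tregs.

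The comparison of IL-33+ with IL-33- grafts asks whether the alarmin IL-33 of the graft changes the cells that reach it. In all captured cells of a heart together, *Ifng* made up 48.2, 70.5 and 81.8 CPM of the pooled UMIs in hearts 1, 2 and 3. It made up 43.8, 49.97 and 61.2 CPM in hearts 4, 5 and 6, and the groups overlapped. These values pool UMIs over types and so depend on the mix and depth of the captured cells. Within types, 115 of the 126 pairs of a gene and a type had at least 10 UMIs and a UMI in 3 hearts. *Ifng* in B cells, cDCs, Mo-DCs and monocytes, *Ifngr2* in NKT cells and *Il12rb2* in 6 types did not. None of the 115 passed limma's test after Benjamini-Hochberg adjustment over all genes of the type (called at 0.05 or less), where 0.00884% of all 113175 tests were called. At an unadjusted p of 0.05 or less there were 13 (9 higher and 4 lower in IL-33+), or 11.3% beside 4.71% of all tests, and the hearts of the groups did not overlap in 19, or 16.5% beside 9.82%. The median of the 115 log2 differences was 0.13. These genes share hearts and cells, so the 115 values are not independent. The genes were also chosen with earlier results of these data known, so their shares beside those of all tests are descriptions.

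**Figure D4:**
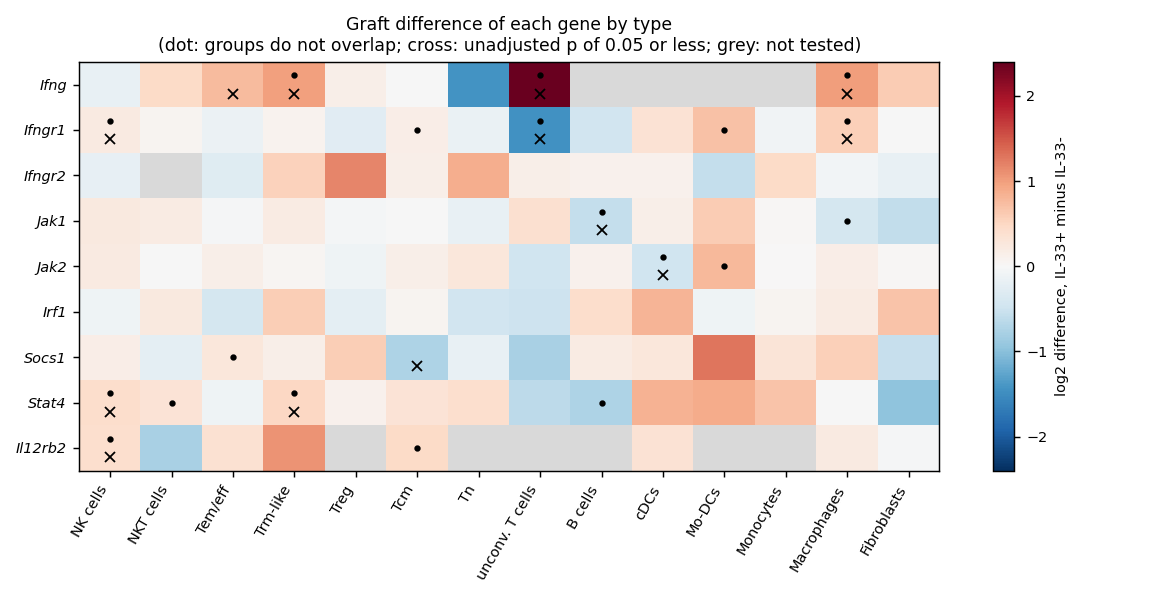
Difference between graft groups for each gene (rows) in each annotated type (columns), as colour on the scale of log2(mean CPM + 10), red for higher in IL-33+. Dots mark pairs whose groups do not overlap, crosses an unadjusted p of 0.05 or less by limma, and grey pairs that were not tested; 13 pairs carry a cross and none was called after adjustment.

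In NK cells, 3 of the 9 genes had an unadjusted p of 0.05 or less, beside 5.82% of all genes in NK cells, and all 3 were higher in IL-33+ grafts with no overlap. *Stat4* stood at 292, 340 and 306 CPM in hearts 1, 2 and 3 and at 235, 203 and 254 CPM in hearts 4, 5 and 6 (log2 difference 0.42, SE 0.17, limma adjusted p = 0.836). *Il12rb2* stood at 172, 196 and 188 CPM beside 135, 148 and 127 CPM (0.41, SE 0.19). *Ifngr1* stood at 1828, 1899 and 1850 CPM beside 1505, 1818 and 1505 CPM (0.21, SE 0.10, adjusted p = 0.846). Both genes of the IL-12 response thus lay higher in each IL-33+ heart than in any IL-33- heart, without passing the adjusted test. Over 15 alternative settings, the unadjusted limma p was 0.05 or less in 14 for *Stat4*, 8 for *Il12rb2* and 7 for *Ifngr1*. In the same cells monocyte markers were lower in IL-33+ (512, 458 and 487 beside 732, 741 and 747 CPM) and naive T cell markers higher (373, 286 and 360 beside 233, 189 and 234 CPM), both without overlap, and their part in these differences was not tested. The ligand did not follow *Stat4* and *Il12rb2*: *Ifng* in NK cells had a log2 difference of −0.18 (SE 0.22, adjusted p = 0.937), and the share of NK cells with an *Ifng* UMI was 27.9% ± 7.92 in IL-33+ and 30.3% ± 8.05 in IL-33- grafts (n = 3 each, exact permutation p = 0.8).

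In Trm-like cells all 9 genes were higher in IL-33+ grafts, with a median log2 difference of 0.49, beside 47.9% of all genes tested in this type. Differences below their SE were those of *Jak2* (0.04, SE 0.21), *Ifngr1* (0.09, SE 0.15), *Socs1* (0.15, SE 0.43) and *Ifngr2* (0.56, SE 0.67). Groups did not overlap for 2 of the 9, *Ifng* and *Stat4*, beside 10.3% of all genes in this type. *Ifng* stood at 116, 73.1 and 129 CPM in hearts 1, 2 and 3 and at 57.2, 33.3 and 54.0 CPM in hearts 4, 5 and 6, on 26, 3 and 39 UMIs beside 10, 3 and 10. The groups did not overlap (log2 difference 0.99, SE 0.38, limma adjusted p = 0.923). An *Ifng* UMI was found in 21.0, 15.0 and 19.8% of Trm-like cells in hearts 1, 2 and 3 and in 13.6, 9.09 and 14.3% in hearts 4, 5 and 6. The difference of 6.29 points reached the smallest p the design allows (exact permutation p = 0.1, or 0.5 adjusted over 5 types). *Stat4* stood at 268, 359 and 294 CPM beside 213, 200 and 230 CPM (0.49, SE 0.23). The same IL-33+ cells carried more of the 5 NK cell markers, which include the granzyme gene *Gzma*. The markers summed to 2570, 1323 and 2211 CPM beside 319, 699 and 772 CPM, with *Ncr1* at 0 in all 6 hearts. *Gzma* was itself higher in IL-33+ Trm-like cells (log2 difference 2.05, limma adjusted p = 0.000357), the only gene called in this type. The part of these markers in the *Ifng* level was not tested.

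In Tem/eff, *Ifng* stood at 202, 54.6 and 151 CPM in hearts 1, 2 and 3 and at 66.4, 82.2 and 54.4 CPM in hearts 4, 5 and 6. The groups overlapped through heart 2 (log2 difference 0.76, SE 0.31, limma adjusted p = 0.998), and without heart 2 the gene was called (1.27, adjusted p = 0.0299, the lowest of 15 alternatives, of which the highest gave 0.9998). In NKT cells the difference was 0.46, and in Tregs it was 0.13. Of the 5 types compared for the share of cells with an *Ifng* UMI, none other than Trm-like cells reached the smallest p. The difference of *Ifng* between grafts was larger in Trm-like than in NK cells by 1.17 on the log2 scale (SE 0.50, adjusted p = 0.946), which did not pass the test of that difference.

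In macrophages, *Ifngr1* stood at 279, 300 and 248 CPM in hearts 1, 2 and 3 and at 184, 174 and 188 CPM in hearts 4, 5 and 6. The groups did not overlap (log2 difference 0.57, SE 0.23, unadjusted p = 0.024 by limma, not called after adjustment). *Ifngr2* in the same cells had a log2 difference of −0.06 (SE 0.26). Fibroblast markers in these macrophages were lower in IL-33+ without overlap, at 165, 145 and 221 CPM beside 251, 430 and 245 CPM, and neutrophil markers reached 2648 CPM in heart 5. Their part in the *Ifngr1* level was not tested. *Ifng* in macrophages was also higher (1.01, SE 0.39), but on 16 UMIs in all and at the background of B cells. In cDCs, *Jak2* was lower in IL-33+ grafts, at 510, 389 and 468 CPM beside 663, 536 and 711 CPM (−0.47, SE 0.22), and in B cells *Jak1* was lower, at 340, 387 and 390 CPM beside 535, 665 and 494 CPM (−0.58, SE 0.27), where heart 5 held 4 B cells.

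The unconventional T cells held the largest differences in both directions among pairs with an unadjusted p of 0.05 or less. *Ifng* gave 33, 2 and 9 UMIs in hearts 1, 2 and 3 and 5, 0 and 0 UMIs in hearts 4, 5 and 6 (log2 difference 2.37, SE 0.88). *Ifngr1* stood at 469, 46.6 and 485 CPM beside 535, 650 and 772 CPM (−1.46, SE 0.48), and the lowest value came from 2 cells of heart 2. It was called by limma without heart 1 (−1.97, adjusted p = 0.000177), without heart 3 (−1.99, adjusted p = 0.00372) and with no filter (adjusted p = 0.0164), settings that all keep those 2 cells. Without heart 2 the difference was −0.43, and over 15 alternatives it ran from −2.22 to −0.16 (adjusted p 0.000177 to 0.9998). *Socs1* in Tcm was the remaining gene with a low unadjusted p, at −0.74 with overlapping groups. Groups did not overlap, at a higher unadjusted p, for *Stat4* in NKT cells (0.33) and B cells (−0.74), *Jak1* in macrophages (−0.42), *Ifngr1* (0.70) and *Jak2* (0.77) in Mo-DCs, *Il12rb2* (0.45) and *Ifngr1* (0.15) in Tcm, and *Socs1* in Tem/eff (0.27). For *Irf1* and *Ifngr2* no type gave an unadjusted p of 0.05 or less or groups without overlap, and the log2 differences ran from −0.50 (unconventional T cells) to 0.82 (cDCs) for *Irf1* and from −0.56 (Mo-DCs) to 1.16 (Tregs) for *Ifngr2*.

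The rest of the pathway was read through 43 genes in 5 lists of inducers, signal transducers and 3 classes of target. The lists were chosen with earlier results of these data known. They gave 486 tests, of which 1 was called and 53 (10.9%) had an unadjusted p of 0.05 or less, 25 higher and 28 lower in IL-33+. Of all 113175 tests, 4.71% had such a p, 2.42% higher and 2.29% lower. Of 96 tests of inducers, 8.33% had it, 7 higher and 1 lower. *Eomes*, the T-box factor of NK cells, stood at 1167, 1278 and 1140 CPM in NK cells of hearts 1, 2 and 3 and at 996, 570 and 927 CPM in hearts 4, 5 and 6 (log2 difference 0.56, SE 0.15, limma adjusted p = 0.286). Both it and *Il18rap*, a chain of the IL-18 receptor (321, 289 and 318 beside 199, 170 and 266 CPM in NK cells; 0.55, adjusted p = 0.622), had no overlap. *Eomes* was higher without overlap in NKT cells too (0.53), and *Il18rap* in Trm-like cells (1.11, with 169, 102 and 129 beside 52.8, 73.5 and 42.9 CPM). In Tem/eff *Il18rap* was higher with overlap (0.76, 49.2, 73.4 and 64.4 beside 34.5, 51.7 and 17.6 CPM). The transducers and inhibitors gave 6 higher and 3 lower of 89, or 10.1%. Among them *Ptpn11*, the phosphatase SHP-2, was higher in NKT cells, at 62.6, 132 and 76.3 CPM beside 50.1, 20.1 and 60.02 CPM (0.94).

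The targets gave 24 of 301 lower and 12 higher at an unadjusted p of 0.05 or less, or 11.96% beside the 4.71% of all tests. They were chosen with earlier results of these data known, so this share, and those within types below, are descriptions and not independent evidence. Interferon-inducible GTPases made 154 of the 301 tests and 18 of these 36, 13 lower and 5 higher, with a median log2 difference of −0.17 beside −0.00055 for all genes. In Tem/eff, *Iigp1* stood at 18.9, 42.6 and 23.2 CPM beside 55.8, 57.2 and 89.5 CPM (−1.04) and *Igtp* at 64.1, 82.1 and 64.4 beside 117, 138 and 88.0 CPM (−0.62), both without overlap. In Trm-like cells *Irgm1* was lower (log2 difference −1.001). Others were higher in IL-33+, with overlap. *Irf8*, a transcription factor, stood in NK cells at 2529, 3034 and 2945 CPM beside 2313, 1950 and 2647 CPM (0.31), *Gbp5*, a guanylate-binding GTPase, in NKT cells at 22.8, 34.3 and 61.5 CPM beside 5.61, 36.7 and 8.30 CPM (0.99), and *Cd74*, the class II invariant chain, in Trm-like cells at 210, 428 and 483 CPM beside 178, 254 and 236 CPM (0.65). None of these 6 targets was called.

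Monocytes, the type with the highest *Ifngr2*, held the called gene. *Cxcl9*, a chemokine that attracts T cells through CXCR3, stood at 178, 0 and 0 CPM in hearts 1, 2 and 3 and at 240, 272 and 215 CPM in hearts 4, 5 and 6. It was lower in IL-33+ by limma (log2 difference −3.24, SE 0.65, adjusted p = 0.0470), a value that depends on the 10 CPM added to the zeros. The UMIs were 102, 0 and 0 beside 58, 17 and 17, found in 10 of 82, 0 of 5 and 0 of 15 cells beside 9 of 33, 2 of 7 and 1 of 12 cells, so all 17 UMIs of heart 6 lay in 1 cell. A floor of 3 UMIs would be 104 CPM in heart 2 and 33.4 CPM in heart 3. The call was kept in 6 of 15 other settings (adjusted p 0.000337 to 0.999 over all 15) and lost in 9, including each of those without hearts 2, 4, 5 or 6 and the one that left out hearts with under 10 cells (−2.45). The share of monocytes with a *Cxcl9* UMI was 12.2, 0 and 0% beside 27.3, 28.6 and 8.33%, with overlap.

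Other targets in monocytes were also lower without being called. *Gbp2* stood at 402, 40.3 and 240 CPM beside 457, 761 and 456 CPM (log2 difference −1.67, SE 0.39, limma adjusted p = 0.210). *Ifi47*, an interferon-inducible GTPase, stood at 258, 0 and 77.6 CPM beside 285, 331 and 262 CPM (−2.29, SE 0.56, adjusted p = 0.213). Of 22 targets tested in monocytes, 20 were lower in IL-33+ beside 50.9% of all genes, 5 of them at an unadjusted p of 0.05 or less beside 2.57%, and the median log2 difference was −0.52 beside −0.014 for all genes. With hearts of under 10 cells left out, 15 of 21 were lower and the median was −0.51. The monocyte markers were themselves lower in IL-33+ monocytes, at 4074, 4249 and 3601 CPM beside 5040, 5504 and 4905 CPM, as were naive T cell markers (27.7 to 201 beside 283 to 396 CPM), and neutrophil markers reached 1204 CPM in heart 3. Their part in the target levels was not tested.

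**Figure D5:**
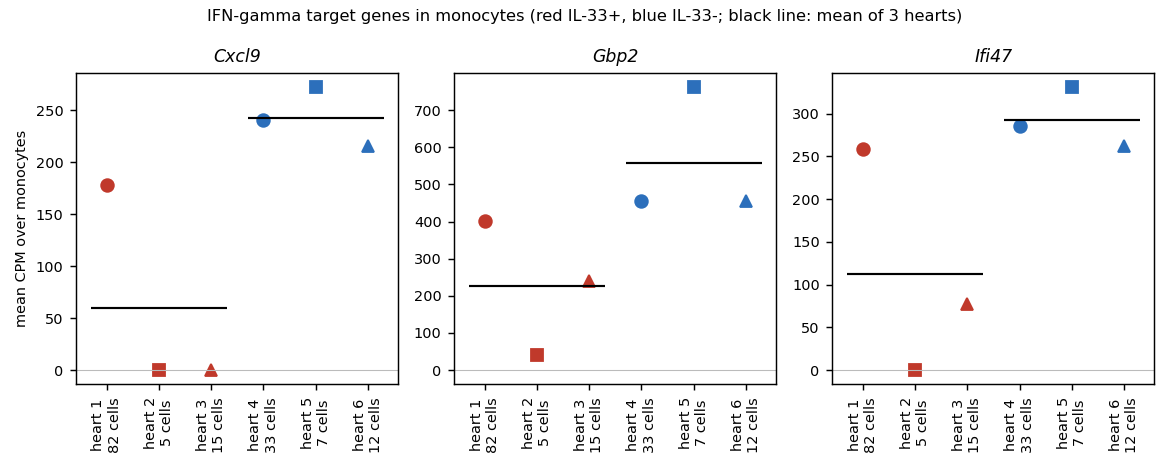
Levels of *Cxcl9*, *Gbp2* and *Ifi47* in monocytes (vertical axes, mean CPM) for each heart, with its number of monocytes under the axis. Points are hearts, red for IL-33+ and blue for IL-33-, and black lines are means of 3 hearts. All 3 IL-33+ hearts lie below all 3 IL-33- hearts in each panel, and hearts 2 and 5 rest on 5 and 7 cells.

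The same list was read in the other types. Of 21 targets, 14 were lower in IL-33+ in NK cells (48.9% of all genes), 15 in Tem/eff (52.8%) and 11 in Trm-like cells (52.1%). Tcm had 13 of 20 lower (52.7%). Fewer were lower in NKT cells (7 of 21, beside 54.5%) and Tregs (9 of 21, beside 51.9%). In cDCs, 16 of 22 targets were lower in IL-33+ (45.3% of all genes), 5 at an unadjusted p of 0.05 or less (2.91%), with a median of −0.51 beside 0.057. The pathway genes named here for cDCs were chosen after their values were seen. *H2-Aa*, a class II chain (−0.67, limma adjusted p = 0.295), and *Cd74*, the invariant chain (−0.50, adjusted p = 0.405), were lower in IL-33+ without being called. Naive T cell markers, which include *Ccr7*, were also lower in IL-33+ cDCs (738, 780 and 545 beside 1256, 946 and 2252 CPM) and T cell markers higher (58.3, 34.7 and 32.2 beside 11.02, 0 and 8.96 CPM), both without overlap, and their part in the target levels was not tested. With hearts of under 10 cells left out, 12 of 22 cDC targets were lower, with a median of −0.089. In unconventional T cells 19 of 23 were lower (55.2% of all genes), 4 at an unadjusted p of 0.05 or less (2.66%), with a median of −0.85. Without heart 2, which held 2 of these cells, 16 of 23 were lower (44.8% of all genes), with a median of −0.31. With hearts of under 10 cells left out, 1 IL-33- heart remained, and the median was also −0.31. Medians lay above 0 in Tn and B cells, as in NKT cells (0.09) and Tregs (0.27). In Tn, 12 of 21 were higher (49.2% of all genes), 3 at an unadjusted p of 0.05 or less (2.46%) and none lower, with a median of 0.33. In B cells, 15 of 21 were higher (65.5%), 1 at that p (3.55%), with a median of 0.20 beside 0.28 for all genes. In Mo-DCs, 13 of 21 were lower (50.5% of all genes), 1 at that p, with a median of −0.18 beside −0.012. In fibroblasts, where 1.19% of cells held both chains when thinned, 15 of 22 were lower (44.7%), with a median of −0.16 beside 0.072. There 4 were lower and 1 higher at that p, or 22.7% beside 3.16% of all genes. Both types had under 10 cells in hearts 2 and 5.

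In macrophages, 9 of 24 targets were lower in IL-33+ (54.7% of all genes), 2 at an unadjusted p of 0.05 or less (2.22%), and the median was 0.06. *Cxcl9* in macrophages stood at 729.5, 702 and 664 CPM in hearts 1, 2 and 3 and at 629.7, 398 and 1097 CPM in hearts 4, 5 and 6, with overlap (0.10, SE 0.27). *Cxcl10* was lower, at 194, 42.3 and 241 CPM beside 283, 299 and 257 CPM (−1.06), and *Iigp1* higher, at 34.0, 161 and 202 CPM beside 24.8, 10.2 and 53.3 CPM (1.72). *Gbp5* was lower with overlap, at 58.5, 9.92 and 43.0 CPM beside 53.2, 95.6 and 93.3 CPM (−1.08), and *Cxcl10*, *Iigp1* and *Gbp5* were not called. The difference of *Cxcl9* between grafts was lower in monocytes than in macrophages by −3.34 on the log2 scale (SE 1.10, adjusted p = 0.927), which did not pass the test of that difference.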

How the data were processed

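The authors aligned 10x Genomics 3' reads to mm10 with Cell Ranger and, in Partek 10.0.23.0425, filtered cells on counts, genes and mitochondrial share. They deposited log2(CPM + 1) for each gene and cell, with a type and a hashtag for each cell. How hashtags were assigned was not given in the sources used here. Undoing the logarithm gave whole UMIs (within 0.05) for 99.94% of low values. Cells held 1500 to 14977 UMIs (median 3698). In each type and heart CPM was averaged, 10 CPM were added, and log2 values were compared between graft groups with limma 3.58.1 (trend, R 4.3.3) for genes with a total of 10 UMIs or more that 3 hearts or more detected. Benjamini-Hochberg adjustment ran over all genes of a type, and a call needed an adjusted p of 0.05 or less. The script was tested on simulated hearts. Single values were compared by two-sided exact permutation over the 10 divisions of 6 hearts. Differences are IL-33+ minus IL-33-. Other steps used scanpy 1.11.5, pandas 2.3.3, scipy 1.17.1, matplotlib 3.10.9 and numpy 2.4.6 in Python 3.11.15. Gene coordinates were taken by symbol from GENCODE vM21 (GRCm38).

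The 9 genes and the lists were chosen with earlier results of these data known. Besides the 9 genes, the text names each list gene that was called and, in NK, NKT, Trm-like and Tem/eff cells, macrophages and monocytes, those with the 3 lowest unadjusted p. The cDC genes and *Cxcl9* in macrophages were named after their values were seen. *Cxcl11* is not analysed here. A gene of the signal transduction list is counted but its values are not reported here. No cell was removed as a doublet in the main values. Scrublet marked 2 cells by its own threshold, so an alternative left out the 266 cells with the highest scores. The other alternatives changed the pseudocount, the filter, the scaling, the method and the hearts used, each heart left out in turn.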

Additional observations from a re-analysis of the deposited data

How the results depend on the processing

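No paired analysis was made, because no pairing of hearts between the graft groups was given in the sources used here. Of 628 alternative values for 42 results on single genes, 611 kept their direction and their side of the threshold. The call was gained in 8 (*Ifngr1* in unconventional T cells, *Ifng* in Tem/eff, *Gbp2* and *Ifi47* in monocytes) and lost in 9, all for *Cxcl9* in monocytes. These results were picked for a low unadjusted p or groups without overlap, and only *Cxcl9* in monocytes was called in the main fit. Staying uncalled is thus no sign of a stable difference. For the 13 listed pairs at an unadjusted limma p of 0.05 or less, that p held in 5 (*Jak1* in B cells) to 14 (*Stat4* in NK cells) alternatives. Among the 9 listed genes 1 call arose with no filter, and 0 to 1 with 1 heart left out (*Ifngr1* in unconventional T cells without hearts 1 or 3, *Ifng* in Tem/eff without heart 2). The 13 pairs at an unadjusted p of 0.05 or less became 7 to 14 with 1 heart left out, with 7 of them without heart 2. Pathway calls were 0 with 1 CPM added, with 30 UMIs required and with limma-voom, 2 with no filter, 5 with 50 CPM added and 0 to 5 with 1 heart left out, and with 50 CPM they were *Cxcl9*, *Gbp2* and *Ifi47* in monocytes and *Cxcl9* and *H2-Aa* in unconventional T cells, the last pair named after their values were seen. Over all genes and types the 10 calls became 1 (30 UMIs required) to 108 (without heart 1). The difference in the share of cells with an *Ifng* UMI turned direction in NK cells (−6.34 to 2.14 points with 1 heart left out) and in Tregs (1.04 when thinned, −8.07 to 4.55 with 1 heart left out). That of NK and NKT cells in the *Ifng* UMIs ran from −13.4 to 0.61 points with 1 heart left out. The range over settings of *Ifng* in Trm-like cells was 0.66 to 1.21 (limma adjusted p 0.733 to 0.998). The cause of these changes was not tested. Few UMIs limit the comparisons of *Ifng* in myeloid cells and of *Ifngr2* in NK cells, NKT cells and Tem/eff. Few cells limit every type with under 10 cells in a heart.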

Other observations

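Among 6307 genes that reached 50 CPM in some annotated type, those whose log2 levels over the 14 types were most like the pattern of each gene were ranked by Pearson correlation, as a description. *Galnt2* (0.98), *Dgat1* (0.96) and *Sytl3* (0.96) were nearest to *Ifng*, and *Spata13* (0.97), *Gm33104* (0.96) and *Pitpnc1* (0.96) to *Ifngr1*. *Mcl1* (0.93), *Rala* (0.93) and *Plekho1* (0.92) were nearest to *Ifngr2*, and *Smad7* (0.97), *Pgm2l1* (0.95) and *Zdhhc20* (0.94) to *Jak1*. *P2ry10* (0.97), *Ppp1r16b* (0.96) and *Sept1* (0.96) were nearest to *Stat4*, and *Chsy1* (0.93), *Padi2* (0.92) and *Rassf1* (0.90) to *Il12rb2*. The nearest genes were less alike for *Jak2* (*Lpcat1*, 0.90), *Socs1* (*Ube2v2*, 0.91) and *Irf1* (*Elf2*, 0.82).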
